A study of Mus musculus with 12 samples.

Results

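The release machinery genes are 48 genes whose products store transmitter in synaptic vesicles, dock and prime those vesicles, release their content and recycle their membrane. The members were chosen by name and not by their values: every non-control probe of the array was taken whose gene name, in the annotation of the cerebellum files, was one of the 48. All 48 genes were on the array, of 27398 gene names in all, with 104 probes. The older annotation of the hippocampus files gave 102 probes for the same names, with 5 probes found only in the newer version and 3 only in the older one, and the newer version was applied to all 12 arrays.

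RNA came from the entire hippocampus and the cerebellum of adult mice (3 to 5 months of age) of 2 genotypes, En2WT and En2KO, with 3 arrays for each tissue and genotype. The En2KO mice carry a targeted mutation of En2, a homeobox transcription factor of the midbrain and hindbrain, in all cells of the body, and the En2WT mice were their littermates from heterozygous matings. Both genotypes came from a line of mixed 129Sv, C57BL/6 and outbred origin that had been crossed at least 5 times into C57BL/6. The mice were untreated, and each array held labelled RNA of 1 colour. Per the paper's methods both sexes were used, whereas on all 12 arrays the Y-linked probes of Ddx3y, Eif2s3y, Kdm5d and Uty were not well above background and the Xist probe was. Syn1 and Syp, on the X chromosome, were the 2 X-linked members. The labels do not say which hippocampus and cerebellum came from 1 animal.

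A nerve terminal holds a pool of vesicles tethered by synapsins. Vesicles dock at the active zone, a scaffold of Bassoon, Piccolo, RIM, ELKS and liprin proteins, where Munc13 proteins prime them. Release is driven by the SNARE complex of a vesicle protein (a VAMP) with syntaxin and SNAP-25 in the cell membrane. Complexins hold the complex ready and synaptotagmins, which bind calcium, trigger fusion. NSF and its adaptors then take the SNAREs apart, and dynamin, synaptojanin, endophilin and amphiphysin return the membrane to the terminal. Most of these proteins come in several isoforms, encoded by separate genes, and neurons of different regions use different sets of them.

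An array spot carries a 60-base probe, and its brightness measures the labelled transcript that binds to these bases alone, so that probes of 1 gene can differ. Probes on which the results turn are shown first, each by 30 of its 60 bases, 5′ to 3′, with positions in mm9. For Syn1, whose probes are reported apart throughout, the probe near the 5′ end of the gene (A_52_P482360, chrX:20497763-20497822, minus strand) was 81.7% G and C. Capitals mark its CG dinucleotides. The other probe, A_51_P420684, lay near the 3′ end of the gene.
Syn1 5′ probe A_52_P482360, bases 1 to 30: cCGcCGcctccctCGgcCGccagccctggg

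The other probes shown are those of Cplx2 and Unc13a, whose probes went apart between genotypes, and the isoform pairs Syt1 and Syt2, and Vamp1 and Vamp2, which went apart between regions. The Cplx2 probes lay one after the other on chromosome 13 (plus strand), 1.2, 2.5 and 1.5 kb from one to the next. The Unc13a probes lay 33.4 kb apart on chromosome 8 (minus strand).
Cplx2 A_52_P650908, chr13:54479998-54480057: ccacgggctagagagcattaaccaaagcct
Cplx2 A_51_P281525, chr13:54481163-54481222: cagttaagtctcagttccaaaggggaaaac
Cplx2 A_52_P195602, chr13:54483702-54483761: ccttcacagatagacctcaaaggtaatgaa
Cplx2 A_51_P485161, chr13:54485200-54485259: tccccactttgtatgatgcaaatgctaaga
Unc13a A_51_P188704, chr8:74184257-74184316: cgggaatgcacgggctcatctcacagaaca
Unc13a A_51_P459479, chr8:74150875-74150934: ttcttagcatgtgactgcaaaggtagaatc
Syt1 A_52_P103929, chr10:107935317-107935376, minus strand: tcaaatgaggggctttcctacttaagggac
Syt2 A_51_P330749, chr1:136644751-136644810, plus strand: ttttgaacatctctcttcattttctggaat
Vamp1 A_52_P166694, chr6:125171818-125171877, plus strand: ttaggtgtagttggcattcgttcttctggg
Vamp2 A_52_P301495, chr11:68905527-68905586, plus strand: agtgtgagagagaaagcaagctatttcctt

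Values below are log2 signals after quantile normalization over the 12 arrays, and differences are on the same scale. Between 62.3% and 73.0% of the 43379 spots of an array were well above background, and no spot was saturated. Precision is limited by how few arrays each group has. The En2 probe does not check the labels, since it lies in the 3′ untranslated part of the gene, which the mutation leaves, and it gave 13.80 to 14.61 in En2WT and 14.08 to 14.81 in En2KO cerebellum. The tissue labels were checked with markers: Gabra6, a granule cell subunit of the GABA receptor, was well above background on 1 of 6 hippocampus arrays, and the mean of 10 hippocampal neuron markers was 12.07 to 12.60 in hippocampus and 7.01 to 7.49 in cerebellum. Arrays of a group had rank correlations of 0.968 to 0.982. Of the 104 probes, 88 to 91 were well above background on all 3 arrays of a group, covering 46 or 47 genes. Sv2c, a vesicle glycoprotein, was not well above background on all 3 arrays of any group and was not tested.

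The first comparison asks how the release machinery differs between the cerebellum and the hippocampus of En2WT mice. More of the machinery was lower than higher in the cerebellum, and a small set of isoforms was far higher there. Of 91 tested probes of 47 genes, 34 probes of 21 genes were lower in the cerebellum and 11 probes of 10 genes were higher at an adjusted p below 0.05 (limma, Benjamini-Hochberg over all 27393 tested probes). Over all tested probes 13.5% were lower and 14.5% higher by the same rule. The median difference of the 91 probes was -0.54, and that of all tested probes was 0.04. In these bulk tissues, fewer cells of a type and less RNA per cell cannot be told apart. The position of a group's array was the same on all 3 slides, so that position and group cannot be told apart either.

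**Figure D1:**
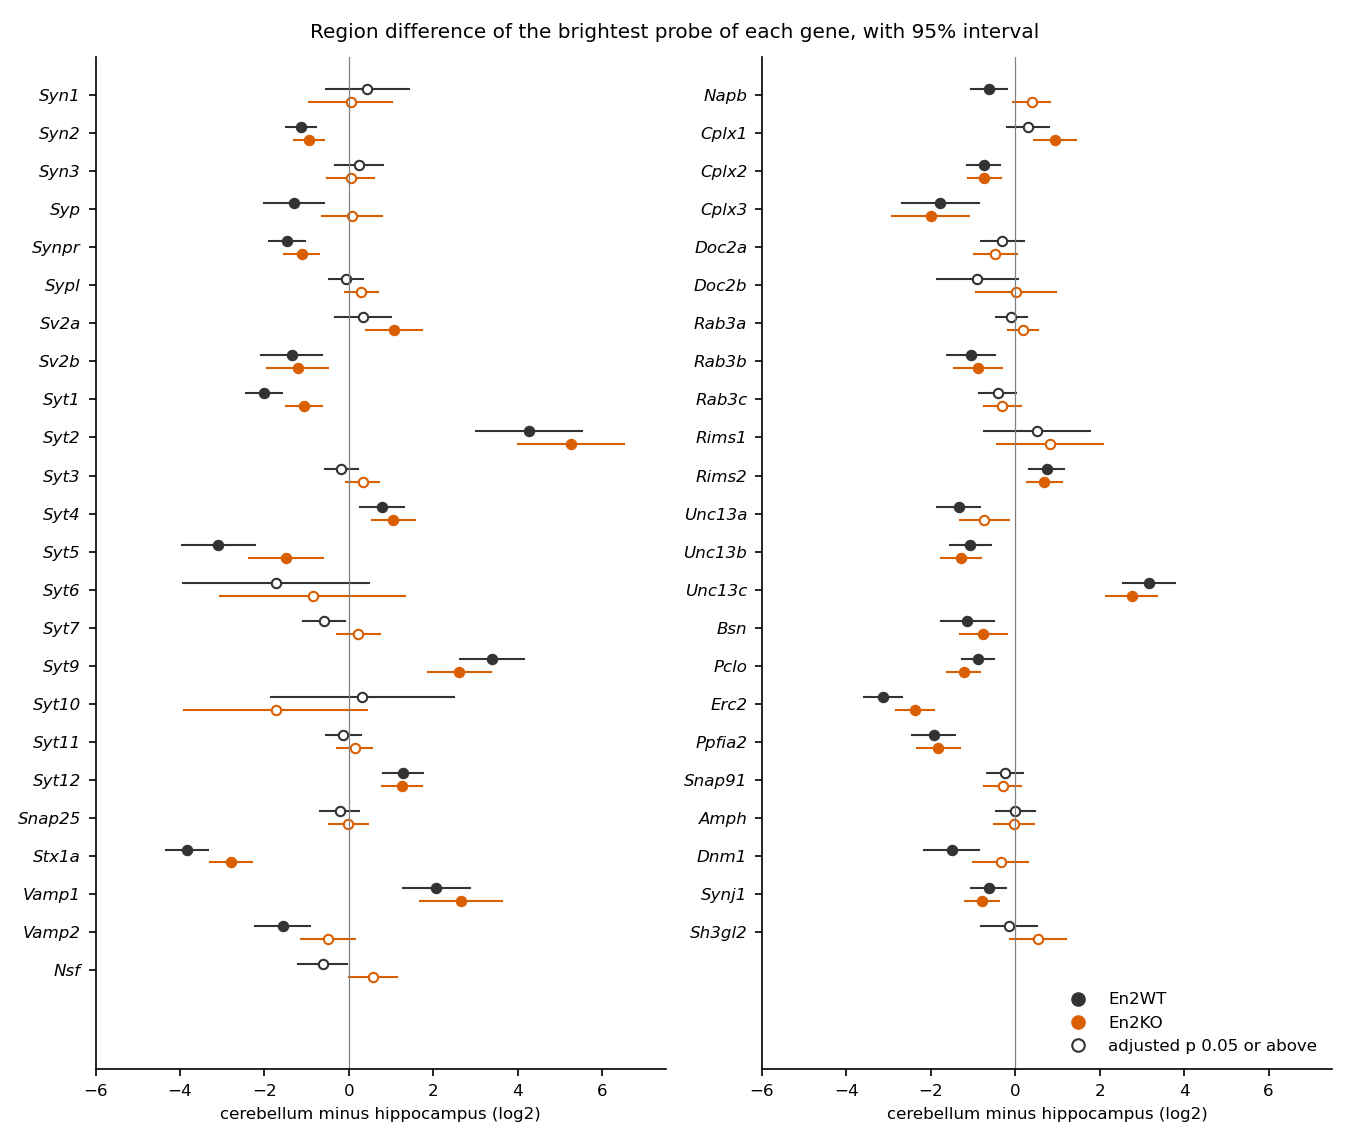
Cerebellum minus hippocampus (log2 signal, x axis) for the brightest probe of each of the 47 tested genes, in order of role, with En2WT in black and En2KO in orange. Points are the estimates, bars their 95% intervals, and open points have an adjusted p of 0.05 or above. Syt2, Syt9, Unc13c and Vamp1 stand to the right of 0 in both genotypes, and Stx1a, Erc2 and Syt5 to the left.

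Among the synapsins, Syn2 was lower in the cerebellum. Its brightest probe read 15.59, 15.56 and 15.24 in En2WT cerebellum and 16.54, 16.64 and 16.59 in hippocampus, a difference of -1.13 (SE 0.17, adjusted p = 0.00032), and the groups did not overlap. Syn1 gave opposite signs by its 2 probes. The 3′ probe read 11.45, 11.05 and 9.49 in cerebellum and 13.24, 12.49 and 11.97 in hippocampus, a difference of -1.90 (SE 0.48, adjusted p = 0.011), and without the first hippocampus En2WT array it was -1.57 (adjusted p = 0.056). The 5′ probe read 13.31, 13.83 and 11.90 against 12.91, 12.19 and 12.63, and the groups overlapped. Its difference was 0.44 (SE 0.45, 95% interval -0.54 to 1.41, adjusted p = 0.50). Of the Syn3 probes, A_52_P287954 was higher in the cerebellum (difference 0.81, adjusted p = 0.029), while the brightest, A_52_P1128347, differed by 0.24 (adjusted p = 0.53).

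The log2 difference of the Syn1 probes, 3′ minus 5′, was also taken on each array, a measure chosen after the values were seen. It was -1.86, -2.78 and -2.41 in En2WT cerebellum, -2.65, -1.12 and -2.15 in En2KO cerebellum, 0.33, 0.30 and -0.66 in En2WT hippocampus, and -1.49, -1.37 and -0.27 in En2KO hippocampus. The 6 cerebellum arrays were lower than the 6 hippocampus arrays by a mean of 1.64, with 1 cerebellum value within the hippocampus range. No test is given, since the probes had already been seen to differ.

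The vesicle membrane proteins included 4 lower probes and no higher probe among the 8 tested. Synaptophysin (Syp), a major vesicle membrane protein, read 13.69, 13.54 and 12.97 in cerebellum and 15.04, 14.50 and 14.54 in hippocampus (difference -1.29, SE 0.32, adjusted p = 0.011), and without the first hippocampus array it was -1.12 (adjusted p = 0.0503). Its relative synaptoporin (Synpr) was lower by a similar size, -1.47 (adjusted p = 0.00013), as was the vesicle glycoprotein Sv2b by its brightest probe, -1.36 (adjusted p = 0.0092). Sv2a, its widely used paralog, differed by 0.33 (95% interval -0.33 to 0.99, adjusted p = 0.45).

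The synaptotagmins gave the widest contrast. Syt2, the fast calcium sensor of many hindbrain synapses, read 8.96, 8.70 and 7.75 in En2WT cerebellum and 5.04, 4.84 and 2.76 in hippocampus. There it was well above background on only 1 of 3 arrays, and the cerebellum level was at least 13.5-fold higher (adjusted p = 0.00018). Such a bound sets the mean of the brighter group against the higher of the dim probe's own signal and the dimmest signal well above background on each array. With normexp correction or local background subtraction, both with an offset of 50, which compresses dim signals, the log2 difference of Syt2 was 2.04 in place of 4.26. Syt9, another fast calcium sensor, was higher in the cerebellum by 3.38 (SE 0.34, adjusted p = 1.8e-05), reading 9.87 to 10.52 there and 6.55 to 7.48 in hippocampus. Both probes of Syt12, which lacks calcium binding, were higher by 1.29 and 1.58, and Syt4 was higher by 0.78 (adjusted p = 0.028) by its brighter probe. The Syt4 call was lost without the first or the third hippocampus or the second or the third cerebellum En2WT array, with adjusted p from 0.075 to 0.11.

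Syt1, the main calcium sensor of forebrain synapses, moved the other way. Its brightest probe read 13.97, 14.14 and 13.71 in cerebellum and 16.09, 16.12 and 15.65 in hippocampus, a difference of -2.01 (SE 0.20, adjusted p = 1.4e-05). Of the 6 Syt1 probes 5 were lower, by 1.65 to 2.33 on the log2 scale, and the sixth, A_52_P41090, which is annotated to an Ensembl transcript rather than the RefSeq one, differed by -0.47 (adjusted p = 0.26). Syt5 was lower by 3.09 (SE 0.40, adjusted p = 0.00013). Syt3, Syt6, Syt7, Syt10 and Syt11 had no probe past the threshold. For Syt6 the 3 En2WT cerebellum arrays read 4.90, 7.04 and 10.23, and for Syt10 they read 8.63, 9.85 and 6.37, so that the 95% intervals of these probes spanned more than 4 log2 units.

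Of the SNAREs, syntaxin 1A (Stx1a) had the lowest difference of any member. It read 7.78, 7.92 and 7.001 in cerebellum and 11.52, 11.27 and 11.40 in hippocampus, and was 14.2-fold lower (log2 difference -3.83, SE 0.23, adjusted p = 2.3e-07). The vesicle SNAREs went apart. Vamp1 read 15.18, 15.03 and 13.83 in cerebellum and 13.04, 12.44 and 12.35 in hippocampus, 4.20-fold higher in the cerebellum (adjusted p = 0.0017), whereas Vamp2 read 13.54, 14.11 and 13.69 against 15.99, 15.16 and 14.91, 2.97-fold lower (adjusted p = 0.0019). The other 2 Vamp1 probes were near background on every array and the other 2 Vamp2 probes differed by -0.57 and -0.66 without passing the threshold. Snap25 did not pass by any of its 3 probes (differences -0.30 to -0.04). Napb, an adaptor that brings the disassembly enzyme to the SNARE complex, was lower by 0.62 (adjusted p = 0.036) by its brighter probe. That call was lost without the first or the third hippocampus or the second or the third cerebellum En2WT array, with adjusted p from 0.079 to 0.11.

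Of the SNARE regulators, Cplx2 was lower in the cerebellum by 3 of its 4 probes, by 0.75 to 2.15 on the log2 scale, and Cplx3 by 1.78 (adjusted p = 0.0074) by its brighter probe, which was -1.17 with either background correction. Cplx1 differed by 0.30 (95% interval -0.20 to 0.80, adjusted p = 0.35). Of the vesicle GTPases, Rab3b was lower by both probes, by 1.05 and 1.85, while Rab3a, the main brain form, differed by -0.09 (95% interval -0.46 to 0.27). The calcium-binding Doc2a and Doc2b did not pass the threshold (-0.30 and -0.90, adjusted p = 0.36 and 0.15).

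Of 18 active zone probes 10 were lower and 3 higher in the cerebellum. Unc13c, the Munc13 paralog of cerebellar granule cells, read 11.80, 11.84 and 11.68 in cerebellum and 8.89, 8.74 and 8.19 in hippocampus, a difference of 3.17 (SE 0.28, adjusted p = 5.4e-06). Erc2, an ELKS scaffold protein, was lower by all 3 probes, and its brightest read 9.52, 9.85 and 9.75 against 13.17, 12.80 and 12.54 (difference -3.13, SE 0.21, adjusted p = 5.4e-07). The liprin Ppfia2 was lower by 1.94, Unc13b by all 3 probes (1.06 to 1.58), Bsn by 1.14 and Pclo by 0.89 by its brightest probe. The other Pclo probes had the opposite sign without being called. A_52_P141641 had means of 11.07 in cerebellum and 10.35 in hippocampus, and A_52_P336904 of 8.17 and 7.72. The dimmest Unc13b probe was well above background on 2 of 3 cerebellum arrays. Without the third cerebellum array, which left a lone one since the second carried an outlier flag, Bsn differed by -0.71 (adjusted p = 0.095), with the lone array assumed to vary like those of the other groups. Rims2 was higher by 0.75 (adjusted p = 0.011), and Rims1 differed by 0.52 (adjusted p = 0.54). The Unc13a probes were called in opposite directions: A_51_P459479, annotated to the RefSeq transcript, was lower in the cerebellum by 1.34 (adjusted p = 0.0014), and A_51_P188704, annotated to a cDNA clone and farther upstream, was higher by 1.27 (adjusted p = 0.0020). Among the endocytic genes Dnm1 was lower by 1.503. Synj1 was lower by 0.63 by its brightest probe, a call that was lost without any one of 4 of the 6 arrays (adjusted p from 0.060 to 0.099), and Snap91, Sh3gl2 and the brightest probe of Amph did not pass. The dimmer Amph probe, A_51_P460739, was called higher in the cerebellum, by 1.18 (means 6.79 and 5.61).

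Isoform ratios were compared within arrays, as the log2 ratio of the brightest probes of 2 genes, for 17 pairs fixed by family. The ratio itself has no absolute meaning, since the probes differ in brightness, but its difference between regions does. With 6 arrays against 6, the smallest two-sided exact permutation p is 0.0022. After Benjamini-Hochberg adjustment over the 17 pairs, 10 ratios differed between regions. Syt1 over Syt2 was 5.73 ± 0.68 (SD, n = 6) in the cerebellum and 12.02 ± 0.73 (SD, n = 6) in the hippocampus, a difference of -6.29 (exact permutation adjusted p = 0.0053). Since Syt2 was not well above background on most hippocampus arrays, the size of that difference is not settled, and with normexp background correction it was -3.64, with the same adjusted p. Syt1 over Syt9 differed by -4.54, Unc13a over Unc13c by -4.19 and Vamp2 over Vamp1 by -3.50, and in each the ranges of the regions did not overlap. The ratios of Unc13a, here and over Unc13b below, rest on its probe A_51_P459479. Its other probe, called in the opposite direction between En2WT regions, was not tried, so these ratios hold for that 1 probe.

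Sv2a over Sv2b was 0.19 ± 0.44 (SD, n = 6) in the cerebellum and -1.79 ± 0.48 (SD, n = 6) in the hippocampus. Cplx2 over Cplx1 was lower in the cerebellum by 1.36, and Rab3a over Rab3b was higher by 1.01. Syn1 over Syn2, taken with the 5′ Syn1 probe, was higher by 1.28. With the 3′ Syn1 probe, an alternative added after the values were seen, it was -0.36 (exact permutation adjusted p = 0.50), with -0.77 in En2WT and 0.05 in En2KO, so that no direction held for this pair. The ratios of Rab3a over Rab3c (difference 0.41) and Cplx2 over Cplx3 (difference 1.15) passed as well, but with each array scaled to its 75th percentile their adjusted exact permutation p-values were 0.15 and 0.070. Syn1 over Syn3, Syp over Synpr, Rims1 over Rims2, Unc13a over Unc13b, Doc2a over Doc2b and Bsn over Pclo did not pass. By its 3′ probe, Syn1 over Syn3 was lower in the cerebellum by 1.54 (log2 difference -1.54, exact permutation adjusted p = 0.0053), against 0.10 by the 5′ probe. For the pair of Rims1 and Rims2 the difference was -0.05, with SDs of 0.70 and 0.97, and for that of Unc13a and Unc13b it was 0.03, with SDs of 0.30 and 0.75. These tests joined the genotypes, which differed in direction for some pairs. Unc13a over Unc13b was 1.09 in cerebellum and 1.37 in hippocampus of En2WT, and 0.99 and 0.47 in En2KO. Doc2a over Doc2b was 2.75 and 2.16 in En2WT, and 3.25 and 3.75 in En2KO. Sv2a over Sv2c is not read, since Sv2c was near background. The ratio of Bsn over Pclo holds for the brightest Pclo probe alone, since the other Pclo probes had the opposite sign between En2WT regions. The Vamp1 value was missing on the third En2KO array of each region, the Bsn value on the second En2WT cerebellum array and the Unc13a value on the third En2KO hippocampus array, through outlier flags, so that their ratios rest on fewer arrays.

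**Figure D2:**
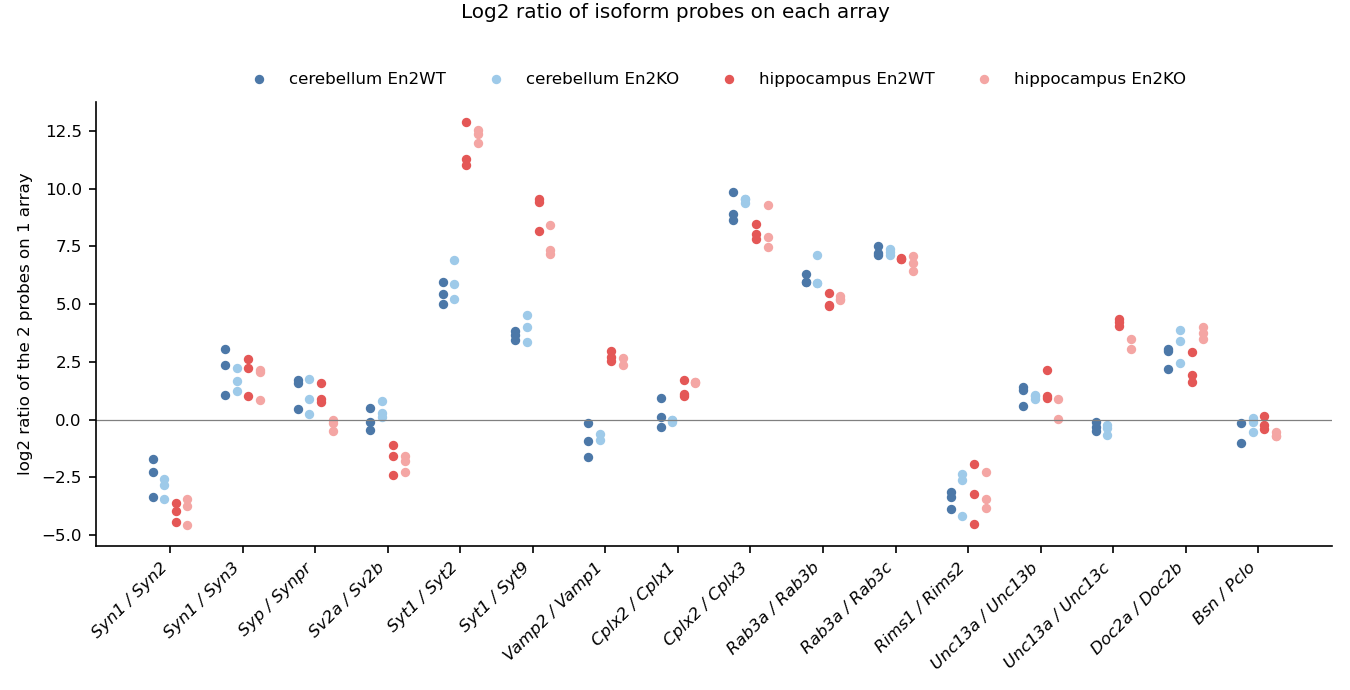
Log2 ratio of the brightest probes of 2 genes (y axis) on each array, for 16 pairs (x axis), with blue points for cerebellum and red points for hippocampus and the paler shade for En2KO. The regions stand fully apart for Syt1 over Syt2, Syt1 over Syt9, Vamp2 over Vamp1 and Unc13a over Unc13c, and overlap for Rims1 over Rims2 and Unc13a over Unc13b.

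In En2KO mice the same comparison of regions gave 11 higher and 24 lower probes in the cerebellum among 92 tested, against 12.7% higher and 11.8% lower of all 27084 tested probes, and the median of the members was -0.28 against 0.01 for all tested probes. Of the 45 probes called in En2WT and the 35 called in En2KO, 32 were called in both, which is 71.1% of the first and 91.4% of the second, all 32 in the same direction. The isoforms with the widest contrast were among them. Syt2 was well above background on none of the En2KO hippocampus arrays, and its cerebellum level was at least 12.5-fold higher. Stx1a differed by -2.79, Erc2 by -2.39, Unc13c by 2.76 and Vamp1 by 2.65. Probes called in En2WT but not in En2KO included Syp (0.07, adjusted p = 0.90), the Syn1 3′ probe (-0.89, adjusted p = 0.21), Vamp2 (-0.50, adjusted p = 0.25) and Dnm1 (-0.34, adjusted p = 0.45). The 3 probes called in En2KO alone were those of Sv2a (1.06), Cplx1 (0.93) and Synj1 A_52_P97300 (-1.16). Whether a region difference itself differed between genotypes is the interaction given further on, and no member passed it.

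The second comparison asks what the loss of En2 changes in the hippocampus. Here 1 probe of Cplx2 was lower and 1 probe of Unc13a was higher in En2KO among 90 tested probes of 46 genes, while 1.22% of all 25670 tested probes were lower and 0.904% higher. A count of 1 in each direction is near that background. The whole set leaned to lower values: 65 of 90 probes were below 0, with a median of -0.20 against 0.02 for all tested probes, and 24 probes had an unadjusted p below 0.05 and were lower, while 4 were higher. Over all tested probes 2867 were lower and 2586 higher by that rule. These counts describe the members, which share arrays and mRNA sources, and were not put to a test of the list.

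**Figure D3:**
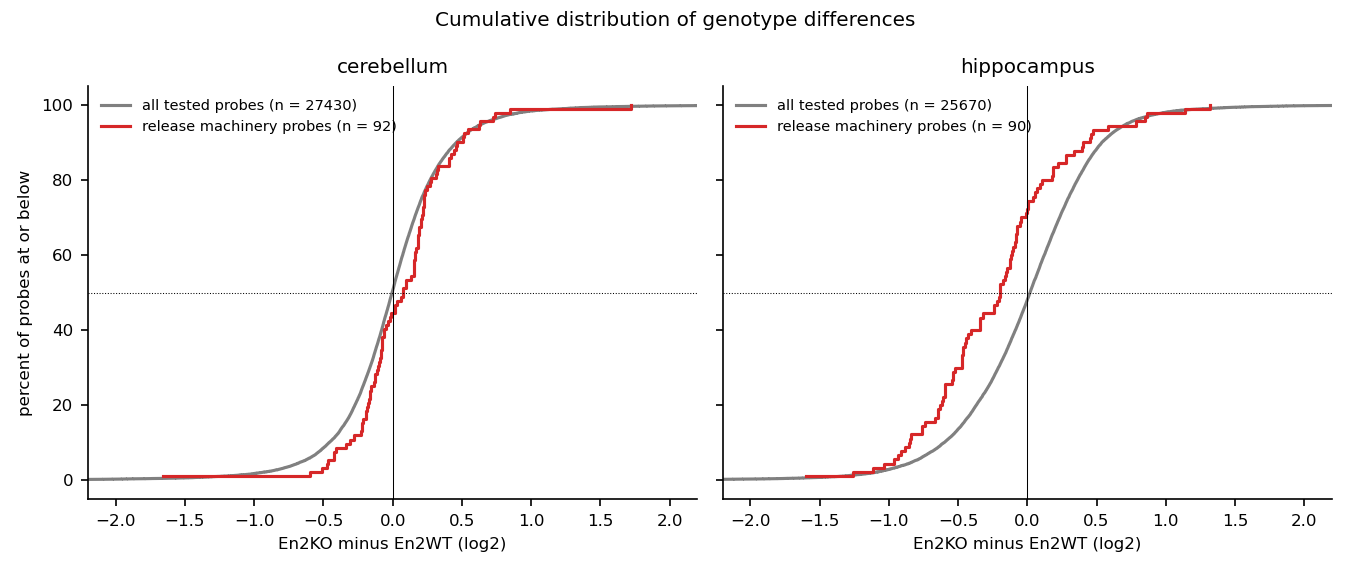
Cumulative percent of probes (y axis) at or below each En2KO minus En2WT difference (log2 signal, x axis) for release machinery probes in red and all tested probes in grey. In the hippocampus the red curve crosses 50% at -0.20 and the grey one at 0.02, and in the cerebellum it crosses at 0.07.

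The lower Cplx2 probe, A_52_P195602, read 12.13, 12.02 and 11.58 in En2WT hippocampus and 10.37, 10.37 and 10.18 in En2KO hippocampus, a gap between the groups of 1.21. It was 3.03-fold lower (log2 difference -1.60, SE 0.20, adjusted p = 0.012), with differences of -1.76, -1.65 and -1.39 within the 3 slides. The 3 other probes of the same gene, a complexin that binds the assembled SNARE complex, did not pass. The brightest, 1.5 kb downstream, read 16.06, 16.23 and 16.07 against 15.94, 16.04 and 16.13 (difference -0.08, 95% interval -0.46 to 0.29), and the others differed by -0.47 and -0.65.

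The higher Unc13a probe, A_51_P188704, read 7.71, 7.71 and 7.56 in En2WT and 9.08, 9.15 and 8.71 in En2KO hippocampus, 2.49-fold higher (log2 difference 1.32, SE 0.19, adjusted p = 0.019), with differences of 1.37, 1.44 and 1.14 within the slides. In both cerebellum groups it read 8.34 to 9.25. The other Unc13a probe read 13.22, 12.79 and 12.41 in En2WT and 11.90 and 12.23 in En2KO hippocampus, where the third array carried an outlier flag, and differed by -0.74 (SE 0.28, adjusted p = 0.20). The sign of the Unc13a difference therefore depended on the probe. Both calls were lost without the first hippocampus En2WT array, at differences of -1.49 and 1.34 and adjusted p-values of 0.063 and 0.088. The Cplx2 call was also lost without the third En2KO array (adjusted p = 0.065), and that of Unc13a without the second or the third En2WT array or the second En2KO array (adjusted p = 0.055, 0.051 and 0.062), with the same signs throughout. With all 12 arrays in 1 model the Cplx2 call was lost (adjusted p = 0.15), and with the replicate number, which is the slide, as a block that of Unc13a was (adjusted p = 0.063).

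**Figure D4:**
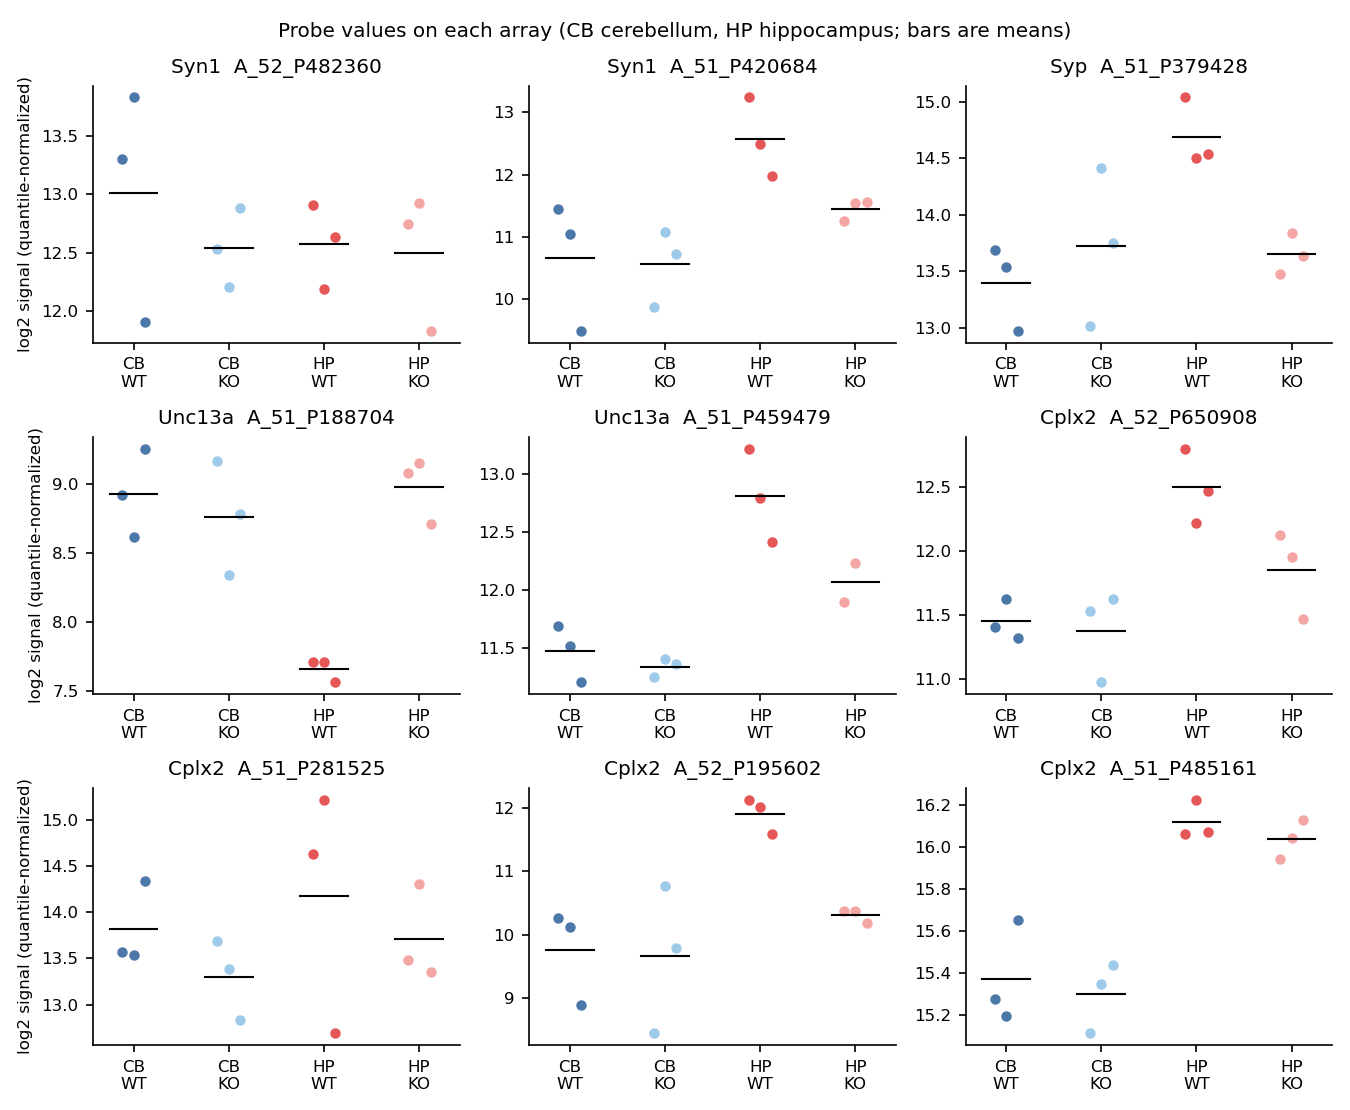
Log2 signal (y axis, different range in each panel) on each array for the 2 Syn1 probes, the Syp probe, the 2 Unc13a probes and the 4 Cplx2 probes; points are arrays and bars group means, with CB for cerebellum, HP for hippocampus, WT for En2WT and KO for En2KO. For Unc13a and Cplx2 only 1 probe each separates the hippocampus groups past the threshold, and the Syn1 3′ probe but not the 5′ probe is lower in every En2KO hippocampus than in every En2WT one.

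The Syn1 3′ probe read 13.24, 12.49 and 11.97 in En2WT hippocampus and 11.25, 11.55 and 11.56 in En2KO hippocampus. The groups did not overlap, with a gap of 0.42, but the difference of -1.11 (SE 0.31, 95% interval -1.83 to -0.40) had an adjusted p of 0.11. Over the alternatives in processing it ran from -1.41 to -0.78, the smallest size without the first En2WT array, with adjusted p from 0.063 to 0.28. The 5′ probe read 12.91, 12.19 and 12.63 against 12.75, 12.92 and 11.82, and differed by -0.08 (95% interval -0.83 to 0.67, adjusted p = 0.91). The 3′ minus 5′ difference of Syn1 was lower in En2KO hippocampus by a mean of 1.04, with overlapping groups, again as a description.

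The other members of lowest unadjusted p in the hippocampus were mostly lower in En2KO, and none passed the adjusted threshold. Syp read 15.04, 14.50 and 14.54 in En2WT and 13.48, 13.84 and 13.64 in En2KO (difference -1.04, SE 0.21, adjusted p = 0.053). Sh3gl2, the brain endophilin that bends membrane during endocytosis, differed by -0.85 (adjusted p = 0.054) with readings of 12.86 to 13.23 and 12.10 to 12.23. The synaptotagmin Syt11 by its dimmer probe (-0.93, adjusted p = 0.059), Snap25 by its dimmest probe (-0.97, adjusted p = 0.072), Napb (-0.76, adjusted p = 0.074), Sv2a by its dimmer probe (-0.92, adjusted p = 0.092) and Syt1 by probe A_51_P298873 (-0.86, adjusted p = 0.11) followed. Probe A_52_P1005171 of Unc13b, at 0.78 (adjusted p = 0.11), was the only other positive value among the 10. In each of these the groups did not overlap, so that each within-slide difference had to have the same sign. The probes were picked for low p, and the share of all tested probes without overlap was not counted. Neither point therefore adds to the p-values. With background corrected by normexp or by local subtraction, or with the authors' values, Syp and Sh3gl2 passed, with adjusted p from 0.027 to 0.038. Over all alternatives, Syp ran from -1.13 to -0.82 with limma adjusted p up to 0.18. Sh3gl2 ran from -0.94 to -0.70 with limma adjusted p up to 0.20.

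For Snap25 the dimmest probe was lower by 0.97 on the log2 scale while the 2 brighter ones differed by -0.05 and 0.11. In 14 of the 28 genes with several tested probes, the probes gave both signs.

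By the rank product at an uncorrected p of 0.005, the statistic of the study's methods, 5 of the 90 member probes were called in the hippocampus, beside 4.25% of all tested probes. They were the probes of Cplx2 and Unc13a above, the Syn1 3′ probe (lower), Doc2b (lower, limma adjusted p = 0.12) and the dimmest Sypl probe (higher, limma adjusted p = 0.18, and well above background on only 2 of the 3 En2WT arrays).

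Marker levels that moved with the hippocampus comparison are given beside it, and their part in the result was not tested. All 13 tested probes of 7 thalamus markers were higher in En2KO hippocampus, with 1 called (Ramp3, 1.58, adjusted p = 0.037), and their mean was 9.52 to 10.18 on En2WT and 10.48 to 11.20 on En2KO arrays. The mean of 7 general neuron markers was 14.31 to 14.47 on En2WT and 14.17 to 14.28 on En2KO arrays, that of 10 hippocampal neuron markers 12.28 to 12.60 and 12.07 to 12.27, and that of 8 microglia markers 10.79 to 11.01 and 10.30 to 10.49. All 7, 10 and 8 of these genes were well above background in both groups. Of the other lists, in the same order of genotypes, the mean was 12.47 to 12.54 and 11.93 to 12.45 for inhibitory neurons, 13.98 to 14.16 and 13.91 to 14.06 for astrocytes, 13.96 to 14.23 and 13.58 to 14.10 for oligodendrocytes, 11.01 to 12.37 and 8.77 to 13.02 for choroid plexus, 8.34 to 8.56 and 8.41 to 8.76 for granule cells, and 10.81 to 11.24 and 11.18 to 11.69 for Purkinje cells. Choroid plexus markers thus ranged most widely among the En2KO hippocampus arrays. The granule cell mean of 8.41, on the third En2KO array, left out Zic1, which had no value there. Zic1 read 13.00 and 12.36 on the first and second, so that mean is not on the same genes as the others. Of 7 tested granule cell probes 4 were above 0 and 3 below, and the 1 called was Slc17a7 (-1.32). Over the 48 members the mean of the brightest probes was 12.12 to 12.29 on En2WT and 11.86 to 12.01 on En2KO hippocampus arrays.

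**Figure D5:**
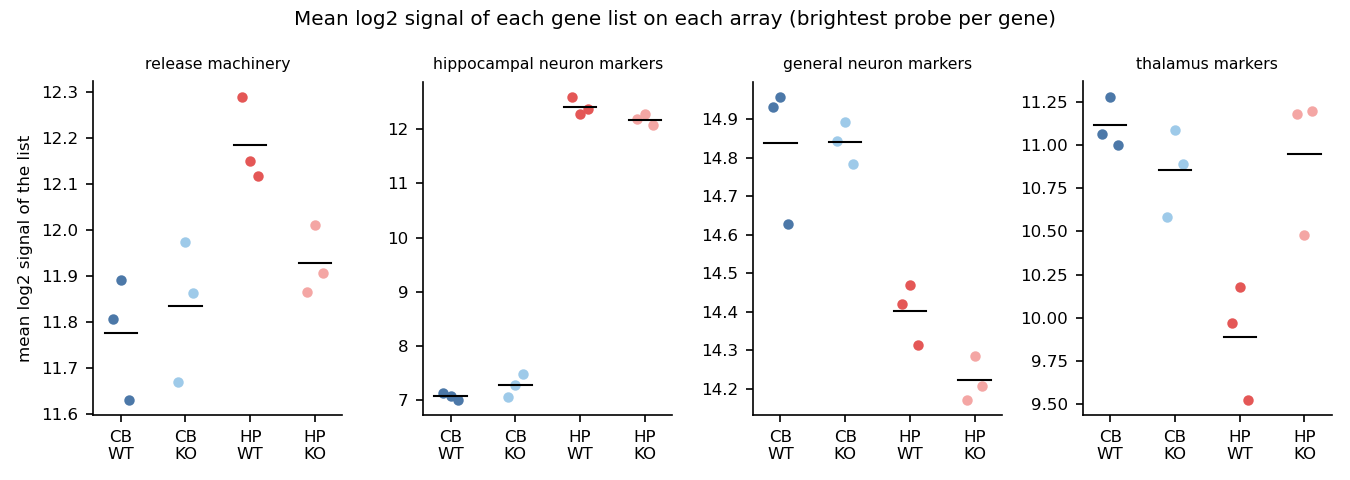
Mean log2 signal (y axis, different range in each panel) of the brightest probes of a gene list on each array, for the release machinery and 3 marker lists; points are arrays and bars group means, with CB for cerebellum, HP for hippocampus, WT for En2WT and KO for En2KO. In the hippocampus the release machinery, hippocampal neuron and general neuron means are lower on all 3 En2KO arrays, and the thalamus mean is higher.

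The third comparison asks the same of the cerebellum. None of 92 tested member probes of 47 genes was called by limma, while 0.237% of all 27430 tested probes were higher and 0.321% lower in En2KO. An unadjusted p below 0.05 was found for 2255 of all tested probes (8.22%). Among the members there were 3 such probes (3.26%), a smaller share, all higher in En2KO, and the median was 0.07 against -0.00 for all tested probes. They were Syt1 probe A_52_P41090 (6.98, 7.89 and 7.58 against 8.29, 8.54 and 8.17, difference 0.85, adjusted p = 0.41), Synpr (11.97, 11.94 and 12.50 against 12.78, 12.64 and 12.87, difference 0.63, adjusted p = 0.50) and the brightest probe of Nsf, the SNARE disassembly enzyme (difference 0.54, adjusted p = 0.57). The others of the 10 lowest, in Syn3, Syt1, Pclo, Cplx3 and Amph, lay between -0.60 and 0.63. The rank product at an uncorrected p of 0.01 called 2 member probes, Syt6 higher and Syt10 lower, where it called 4.54% of all tested probes. Both are the probes given above whose En2WT cerebellum arrays spread widely.

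Syn1 in the cerebellum read, by its 3′ probe, 11.45, 11.05 and 9.49 in En2WT and 9.88, 11.08 and 10.73 in En2KO (difference -0.10, 95% interval -1.33 to 1.13). By its 5′ probe it read 13.31, 13.83 and 11.90 against 12.53, 12.20 and 12.89 (difference -0.48, 95% interval -1.57 to 0.62). The groups overlapped by both probes, and the third En2WT array was the lowest of its group by both. The mean of 8 Purkinje cell markers was 15.04 to 15.53 on En2WT and 14.65 to 14.83 on En2KO cerebellum arrays. That of 7 choroid plexus markers was 10.695 to 10.95 and 11.21 to 11.41, with 9 of 10 tested probes above 0, 4 at an unadjusted p below 0.05 and none called by limma. The part of either list in the members' values was not tested.

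The genotype difference in the cerebellum minus that in the hippocampus was tested for 92 member probes and none passed, where 0.104% of all 27922 tested probes did. The median of the members was 0.28 and that of all tested probes was -0.03, and 14 member probes had an unadjusted p below 0.05 and were above 0, while 1 was below. Over all tested probes 1520 were above 0 and 1702 below by that rule. For Syp the value was 1.37 (SE 0.46, adjusted p = 0.34), for the Syn1 3′ probe 1.01 (SE 0.69, adjusted p = 0.56), for the Syn1 5′ probe -0.40 (adjusted p = 0.81), for the Cplx2 probe A_52_P195602 1.51 (SE 0.71, adjusted p = 0.44) and for the Unc13a probe A_51_P188704 -1.49 (SE 0.34, adjusted p = 0.19).

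Other genes of the pathway outside the 48, from a list of 82 of which 81 were on the array, are given for comparison. Between regions of En2WT mice 24 of 156 tested probes were higher and 23 lower in the cerebellum, near the 14.5% and 13.5% of all tested probes. Those of lowest p among the higher ones were Sncg, Unc13d, Cadps2 and Lin7a (differences 1.91 to 3.49), with Cadps2, a priming factor for dense core vesicles, near background in the hippocampus. Among the lower ones were the RIM-binding protein Rimbp2 (-2.46) and 2 probes of Syt16 (-3.23 and -3.19). In the hippocampus 4 of 153 tested probes were lower in En2KO and none was higher: Itsn1 (-1.09), Dnm2 (-1.16), the vesicular glutamate transporter Slc17a7 (-1.32) and Napa (-1.56), with adjusted p from 0.025 to 0.043, where 1.22% of all tested probes were lower and 0.904% higher. In the cerebellum limma called none of 158 tested probes, with 7 at an unadjusted p below 0.05. In En2KO mice 31 of 158 probes were higher in the cerebellum and 20 lower, beside 12.7% and 11.8% of all tested probes.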

How the data were processed

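RNA of 12 tissues was hybridised to 1-colour Agilent arrays (4 arrays a slide, 3 slides, each holding all 4 groups). The authors deposited the scanner intensity values, made with Feature Extraction 10.7.3.1 (annotation on mm9), and a matrix of log2 values for 27534 probes, which they had filtered and quantile normalized. Matched by quantile levels, the deposited log2 values had been normalized separately by tissue, so they served only for the genotype comparisons and their interaction. Groups follow the labels.

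The processed intensity of each spot was put on the log2 scale, quantile normalized over the 12 arrays and averaged over spots of a probe, leaving out outlier flags (110 to 331 spots an array). A probe entered a comparison where each of the 3 arrays of 1 group showed it well above background and every group had 2 values or more. limma 3.58.1 (R 4.3.3) was fitted, for genotype to the 6 arrays of the tissue and for region and interaction to all 12 in a 4-group model, with Benjamini-Hochberg adjustment over all tested probes. P-values for genotype measure the spread between mice within a tissue. Per the paper's methods the hippocampi and cerebella came from 3 mice of each genotype, so that arrays of the 2 tissues may share animals. The region, interaction and ratio tests took all 12 arrays as independent, since the labels give no pairing. Isoform ratios used exact permutation tests (Python 3.11.15, SciPy 1.17.1). Where 1 probe stands for a gene it is the brightest over the 12 arrays.

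All members may be named by region. For genotype, named probes are those of Syn1, those called and the 10 of lowest p in each tissue, and, of the other pathway genes, the 4 called of lowest p in each direction. Genes named beyond these, for probes that disagree, were chosen after their values were seen. Members and lists were chosen with earlier results of these data known. The alternatives were other background corrections, scaling, filters, a block for the replicate number, arrays left out and the rank product of the study's methods (9 ratios a probe, 100 permutations). The limma fits of genotype and of region in En2WT, and the rank product, were tested on simulated data, and the other fits were not. There 100 probes were changed 2-fold and 100 probes 4-fold for each comparison. Of the 2-fold genotype changes limma called 1% in each tissue. Of 4-fold ones it called 56% in the cerebellum and 67% in the hippocampus. The adjustment is stricter where few probes change. In the hippocampus data limma called 544 probes, so these shares need not hold there. A probe that was not called can still have changed. The rank product, on its own simulated data with as many changed probes, gave 909 false calls in the cerebellum and 549 in the hippocampus. In the data it called 1244 and 1090 probes, so that a call by it alone is weak. Sequences came from the array files. Besides the lists in the text, markers of granule cells, inhibitory neurons, astrocytes, oligodendrocytes, choroid plexus and sex-linked genes were tabulated. Of the items these rules name, 1 gene and 1 probe sequence are not reported here.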

Additional observations from a re-analysis of the deposited data

Results flagged for a closer look

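In each of 34 sets of 6 arrays, one for each isoform ratio and region, the gap between the extreme array and its neighbour was set against the range. By Dixon's limit 2 sets held an array far from the others, where chance flags about 1 set in 20. The log2 ratio of Cplx2 over Cplx1, both complexins, was 0.92 on the third En2WT cerebellum array and -0.31 to 0.09 on the other 5 cerebellum arrays, and on all 6 it was below the lowest hippocampus value of 1.02. The log2 ratio of Rab3a over Rab3b, both vesicle GTPases, was 7.13 on the second En2KO cerebellum array and 5.90 to 6.30 on the other 5, all above the highest hippocampus value of 5.48.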

How the results depend on the processing

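The count of member probes called in the hippocampus between genotypes was 2, and 4 with normexp or local background correction, 5 with the authors' values, 0 with 1 probe per gene, 1 with all 12 arrays in the model and 5 by the rank product, which called 2 in the cerebellum where limma called 0. Leaving out single arrays gave 0 to 2 in the hippocampus and 0 in the cerebellum. Samples of 1 replicate number did not deviate together (correlations of -0.28 to 0.42), so the numbers are not read as pairs. With the replicate block the hippocampus count was 1, the Unc13a probe having an adjusted p of 0.063. With 1 probe per gene, 7 genes were higher and 20 lower in the En2WT cerebellum than hippocampus, and 15 lower in En2KO. Leaving out single arrays gave 8 to 11 higher and 30 to 35 lower in En2WT, and 9 to 13 higher and 19 to 22 lower in En2KO.

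Most changes of sign concerned small differences. The Syn1 3′ probe in the cerebellum turned to 0.293, 0.094 and 0.245 without the first or second En2WT or the first En2KO array, in a range of -0.687 to 0.293. The Syn1 5′ probe in the hippocampus turned to 0.067 with 75th percentile scaling and to 0.088 and 0.258 without the first En2WT or the third En2KO array, in a range of -0.290 to 0.258. Between regions of En2KO it turned to -0.097 with that scaling and to -0.297 and -0.134 without the third hippocampus or the third cerebellum array (range -0.297 to 0.251), and its interaction to 0.011 (range -0.953 to 0.011) without the second En2WT cerebellum array. By the 3′ Syn1 probe, added after the data were seen, Syn1 over Syn2 turned to -0.36 and Syn1 over Syn3 to -1.54, with 10 ratios passing, Syn1 over Syn3 in place of Syn1 over Syn2. Among the other ratios, Rims1 over Rims2 turned to 0.057 and Doc2a over Doc2b to -0.058 with that scaling, and with normexp Unc13a over Unc13b turned to -0.10, Doc2a over Doc2b to -0.11 and Bsn over Pclo to -0.026. With normexp Sv2a over Sv2c passed (0.71). The causes were not tested.

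Of 347 alternative values for named probes in the En2WT region comparison, 328 kept their direction and side of the threshold and 19 lost the call. The authors' values were not run for region comparisons and ratios, since they were normalized by tissue. Single probes were not tabulated without the filter or with 1 probe per gene. Leaving out the filter changes how many probes share the adjustment and the spread that limma borrows over all probes. Taking 1 probe per gene drops all but the brightest, and with them both probes called in the hippocampus. The number of arrays and, for Syt2 and Sv2c, signal near background limit these results.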
